A study of Solenopsis invicta with 3 samples.

Results

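Expression of 5 transposable element genes was measured in worker antennae of the fire ant Solenopsis invicta. The genes are SINVm1_gene_00196, XLOC_003144, XLOC_042917, SINVm1_gene_10777 and XLOC_000229, and they were taken by ID from the genes that the study classes as transposable elements and as differing between SB/Sb and SB/SB workers. They are 5 of 10 genes classed so, of 16 classed as transposable elements by genotype or by social form, and of 19703 genes listed. They were selected on expression differences between these worker classes in other libraries, and those shared RNA, at least partly, with the pools used here. The values below are therefore a description of the 5 genes, with no test of their difference by genotype.

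The libraries came from 3 worker classes. The social supergene is a non-recombining stretch of chromosome, with the variants SB and Sb, that sets colony organization in this ant. P_Bb stands for SB/Sb workers of polygyne colonies, which hold several queens, P_BB for SB/SB workers of polygyne colonies, and M_BB for SB/SB workers of monogyne colonies, which hold a single queen. All were workers caught in the foraging area, genotyped one by one, and their antennae were pooled by class. The colonies named for the P_Bb pool are the same as those for the P_BB pool, whereas the M_BB pool names others, so social form and colony origin cannot be told apart. Each class had 1 library, made from polyA RNA amplified with a SMARTer kit, and no difference between libraries had a replicate check. In whole antennae, fewer cells of a type and less RNA per cell cannot be told apart.

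Summed expected counts ran from 1310209 in P_Bb to 1800106 in P_BB, with 1453234 in M_BB. Odorant receptor genes, the defining receptors of antennal sensory neurons, had a count above 0 for 431 to 439 of 473 IDs in each library. The 8393 genes whose mean normalized count was 10 or more are called the tested genes below, and all 5 transposable element genes were among them. A normalized count is an expected count divided by a size factor that puts the 75th percentile of the 3 libraries on a common scale.

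Transposable elements are stretches of DNA that encode, or once encoded, the proteins for their own movement in the genome. DNA transposons move as DNA: a transposase excises the element and inserts it elsewhere. Long terminal repeat (LTR) retrotransposons move through an RNA copy, which a reverse transcriptase turns into DNA and an integrase inserts. The RNA of such elements thus includes the messenger for their proteins and, for the LTR class, the intermediate of their copying. Among the 5 genes, SINVm1_gene_00196 and SINVm1_gene_10777 are annotated as nuclease harbi1-like. HARBI1 is a vertebrate protein that derives from the transposase of Harbinger DNA transposons. XLOC_003144 is annotated as a Tc1 transposase, of the Tc1/mariner family of DNA transposons. XLOC_042917 was matched to a Copia element and XLOC_000229 to a Gypsy element, and both are superfamilies of LTR retrotransposons.

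The study's list puts the Harbinger-like SINVm1_gene_00196 and the Tc1 gene among those lower in SB/Sb workers. Here the Tc1 transposase gene XLOC_003144 was by far the most abundant of the 5. The P_Bb library held 190 expected counts of it, the P_BB library 331 and the M_BB library 397. Scaled, the normalized counts were 227 (95% counting-error interval 195 to 261), 297 (266 to 330) and 372 (337 to 411), in that order. P_Bb was the lowest library, M_BB the highest, and none of the 3 intervals overlapped. The log2 ratio of P_Bb was -0.39 against P_BB (-0.66 to -0.13) and -0.72 against M_BB (-0.98 to -0.47). M_BB and P_BB, both SB/SB, differed by 0.33 (0.11 to 0.54), nearly as much as P_Bb and P_BB. On the linear scale P_Bb was 1.31-fold below P_BB and 1.64-fold below M_BB, and so under 2-fold in both cases. Its mean normalized count of 298 exceeded that of 89.2% of tested genes, whereas the other 4 genes exceeded 22.6% to 41.4% of them.

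The Harbinger-like gene SINVm1_gene_00196 had 18 reads in the P_Bb library, 58 in P_BB and 24 in M_BB. Its normalized counts were 21.4 (12.7 to 33.8), 52.0 (39.5 to 67.2) and 22.5 (14.4 to 33.5), respectively. The library that stood apart was P_BB, while P_Bb and M_BB lay side by side with intervals that covered nearly the same range. The log2 ratio of P_Bb to P_BB was -1.28 (-2.13 to -0.50), which is 2.43-fold lower, and that of M_BB to P_BB was -1.21 (-1.96 to -0.50), which is 2.31-fold lower. Between P_Bb and M_BB the log2 ratio was -0.07 (-1.04 to 0.87), an interval that reaches from 0.487-fold to 1.83-fold. A difference of either sign within that range was thus not detectable at this depth. Against both SB/SB libraries summed, which had 82 reads, the ratio was -0.81 (-1.64 to -0.06), and this sum is carried by P_BB. Among the tested genes, 46 had a ratio of P_Bb to P_BB as low as this gene or lower, itself included, and 76 had a ratio of M_BB to P_BB as low as its own.

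**Figure D1:**
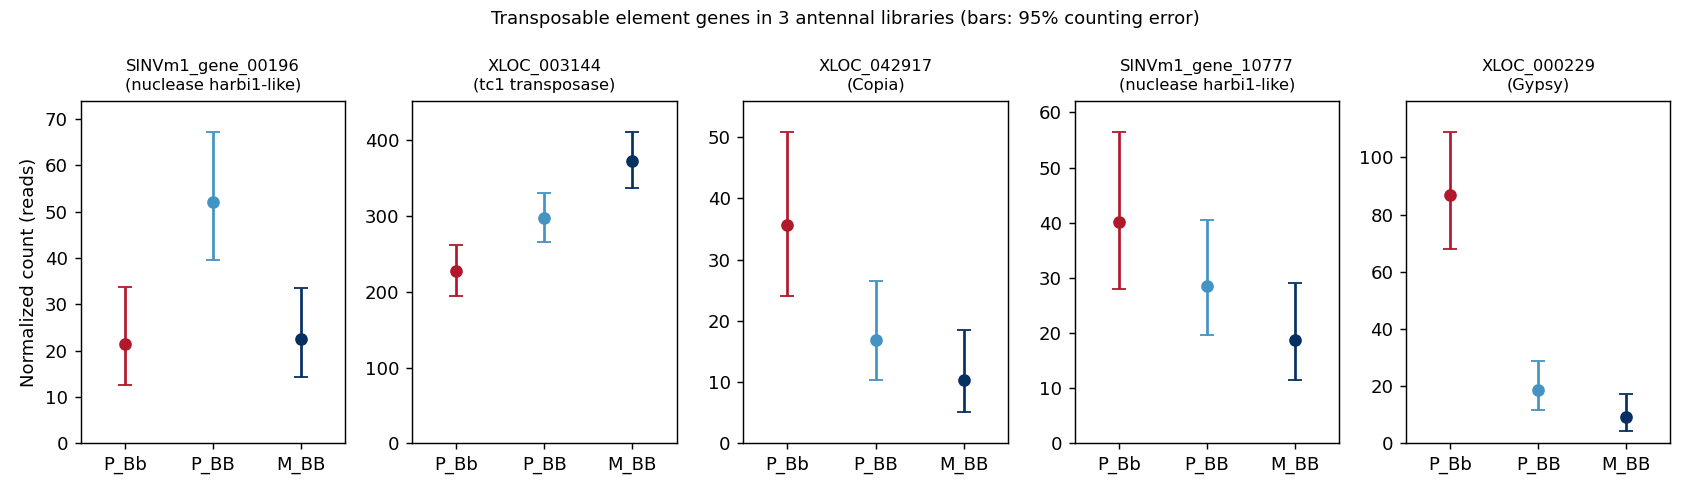
Normalized counts (reads, linear axes from 0, a separate scale in each panel) of the 5 transposable element genes in the P_Bb, P_BB and M_BB libraries. Points are single libraries and bars are 95% Poisson counting-error intervals. XLOC_042917, SINVm1_gene_10777 and XLOC_000229 run down from P_Bb to M_BB, XLOC_003144 runs up from 227 to 372, and SINVm1_gene_00196 is high in P_BB alone, at 52.0.

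The study's list puts the other 3 genes among those higher in SB/Sb workers, and the Gypsy gene XLOC_000229 stood farthest from the SB/SB libraries. Its reads numbered 73 in the P_Bb library, 21 in P_BB and 10 in M_BB, with normalized counts of 86.8 (68.1 to 109), 18.8 (11.7 to 28.8) and 9.38 (4.50 to 17.2). P_Bb was above both SB/SB libraries without overlap, and the intervals of the SB/SB libraries overlapped each other. The log2 ratio of P_Bb was 2.21 (1.49 to 2.98) against P_BB, a 4.61-fold difference, and 3.21 (2.25 to 4.33) against M_BB, a 9.26-fold difference. Only 6 of the 8393 tested genes, this gene included, had as high a ratio to P_BB, and 7 had as high a ratio to M_BB. M_BB was below P_BB by a log2 ratio of -1.01, with an interval of -2.26 to 0.14 that includes equality. The other Gypsy gene of the study's list, XLOC_032988, is listed by social form, as lower in monogyne workers. With 5 reads in P_Bb, 17 in P_BB and 5 in M_BB, it averaged 8.63 normalized counts and is not a tested gene. P_Bb lay 2.56-fold below P_BB there, though the log2 interval (-3.15 to 0.14) includes equality, as does that against M_BB (-1.78 to 2.46). The excess in P_Bb was thus not shared by both Gypsy genes. The reads of XLOC_000229 lay on a transcript of 5114 bases, the longest of the 5.

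The Copia gene XLOC_042917, whose transcript of 2938 bases is the next in length, had fewer reads. P_Bb had 30.0 expected counts, P_BB 18.8 and M_BB 11, and the normalized counts were 35.7 (24.1 to 50.9), 16.9 (10.3 to 26.6) and 10.3 (5.15 to 18.5). The order of the libraries was the same as for the Gypsy gene, but here the intervals of P_Bb and P_BB overlapped. The ratio itself was 1.08 on the log2 scale against P_BB (0.19 to 1.98), or 2.12-fold, and 1.79 against M_BB (0.75 to 2.94), or 3.46-fold. Ratios as high or higher were found for 97 tested genes against P_BB and for 27 against M_BB, this gene included. M_BB and P_BB differed by -0.71 (-1.94 to 0.42), which does not exceed the counting error.

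The Harbinger-like gene SINVm1_gene_10777 showed a gradient with smaller steps. P_Bb had 33.7 expected counts, P_BB 31.9 and M_BB 20.0, and normalized counts were 40.1 (28.0 to 56.5), 28.6 (19.6 to 40.5) and 18.7 (11.5 to 29.0). Neighbours in this order did not differ beyond counting error: the log2 ratio of P_Bb to P_BB was 0.49 (-0.24 to 1.24), and that of M_BB to P_BB was -0.61 (-1.50 to 0.24). The ends of the order did, with 1.10 (0.27 to 1.98) between P_Bb and M_BB, a 2.14-fold difference. These ends differ both in genotype and in social form.

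**Figure D2:**
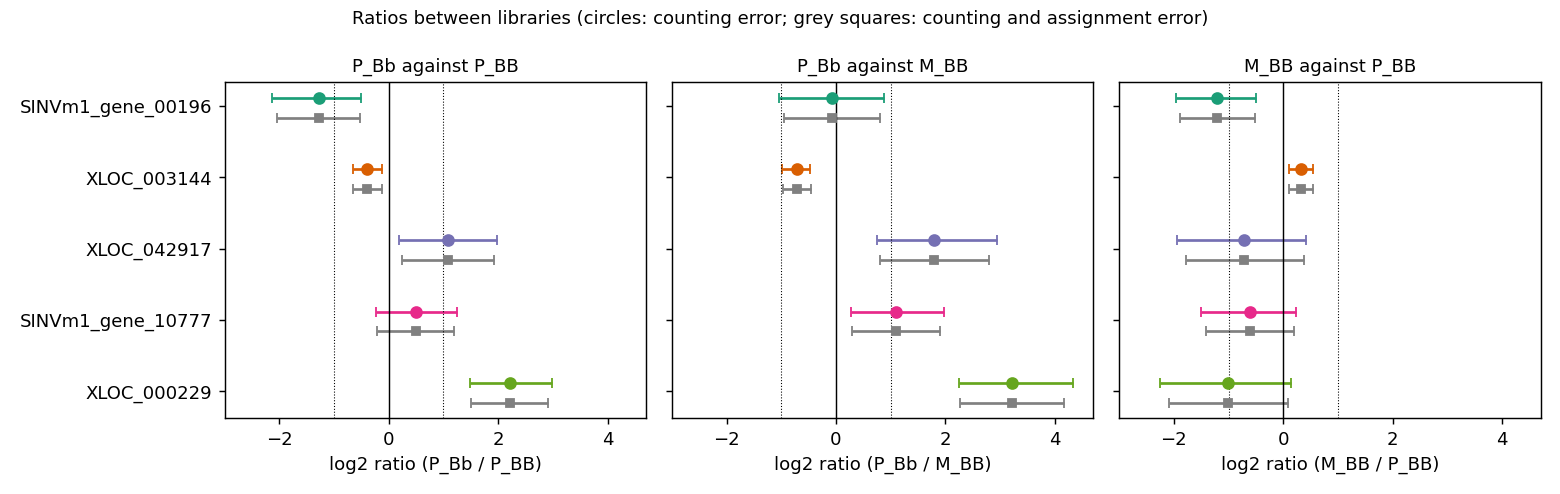
Log2 ratios of normalized counts for the 3 pairs of libraries, with 0 as equality and dotted lines at 2-fold. Circles carry 95% counting-error intervals, and grey squares below them use posterior mean counts and add the error of read assignment. The pairs of intervals nearly coincide, and the ratios of XLOC_000229 (2.21 and 3.21) lie farthest from 0.

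Counts of genes past 2-fold were taken on log2(normalized count + 0.5), for the 5 genes as for all tested genes. Of the 5, 2 were at least 2-fold higher in P_Bb than in P_BB (XLOC_042917 and XLOC_000229) and 1 was at least 2-fold lower (SINVm1_gene_00196), where 1.44% and 1.43% of all tested genes were. Against M_BB, 3 were at least 2-fold higher, against 2.63% of tested genes, and 0 were lower, against 2.67%. Between the SB/SB libraries 1 gene, SINVm1_gene_00196, was at least 2-fold lower in M_BB, against 1.75% of tested genes, and 0 were higher, against 2.2%. XLOC_000229 lay just inside that threshold there, at -0.97, and just past it without the pseudocount, at -1.01. P_Bb lay at least 2-fold above both SB/SB libraries for XLOC_042917 and XLOC_000229, against 0.453% of tested genes, and at least 2-fold below both for 0 of the 5, against 0.667%. Because the genes were picked for a difference of this kind, and because the comparisons share libraries, nothing is read from these counts beyond the values themselves.

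The same holds for counts by interval. The counting-error interval excluded equality for 4 of 5 genes between P_Bb and P_BB, for 4 of 5 between P_Bb and M_BB, and for 2 of 5 between M_BB and P_BB. Over all tested genes these shares were 8.95%, 20.1% and 20.7%. P_Bb was the highest library for 3 of the 5 genes, beside 35.2% of tested genes, and the lowest for 2, beside 29.5%. The order P_Bb above P_BB above M_BB, shared by XLOC_042917, SINVm1_gene_10777 and XLOC_000229, was that of 22.0% of tested genes. The reverse order of XLOC_003144 was that of 17.9%, and the order of SINVm1_gene_00196 (P_BB, then M_BB, then P_Bb) that of 11.6%. The median log2 ratio of the 5 genes was 0.49 for P_Bb against P_BB, 1.10 for P_Bb against M_BB and -0.71 for M_BB against P_BB, beside 0.01, 0.04 and -0.02 over all tested genes. The medians of the 5 were taken without a pseudocount, and those over all tested genes with it.

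For tested genes at least 2-fold apart, the split into higher and lower depended on the scaling for the pairs with M_BB. It was 221 higher and 224 lower in P_Bb than in M_BB on the main scale, 122 and 400 with total counts, and 178 and 283 with TPM. For M_BB against P_BB it was 185 higher and 147 lower, 385 and 64 with total counts, and 285 and 99 with TPM. Total counts moved the median of all tested genes to 0.22 for M_BB against P_BB and to -0.15 for P_Bb against M_BB. A change of size factor shifts every gene alike, so the distance of a gene from that median is fixed by construction: XLOC_003144 was 0.35 above it for M_BB against P_BB, and XLOC_000229 was 3.17 above it for P_Bb against M_BB. The order of the 3 libraries was the same in each of 5 scalings for each of the 5 genes.

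**Figure D3:**
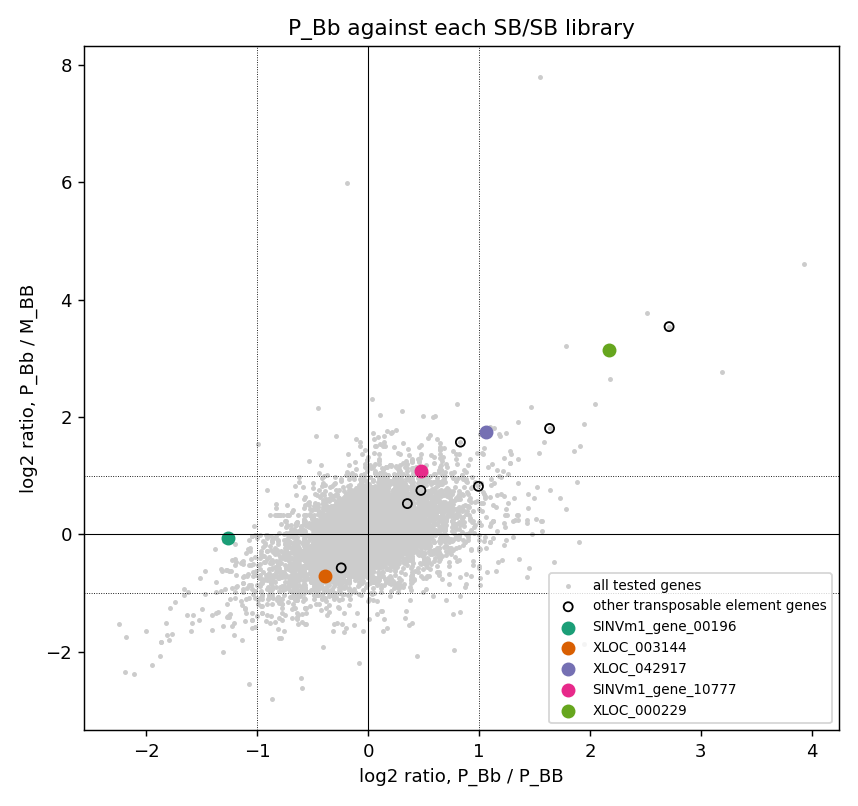
Log2 ratio of P_Bb to P_BB (x) against that of P_Bb to M_BB (y), on log2(normalized count + 0.5), for 8393 tested genes (grey), the 5 transposable element genes (coloured) and the 7 other transposable element genes that passed the minimum (open circles). Both axes share the P_Bb library, so the slope of the cloud is no result. XLOC_000229 and XLOC_042917 lie beyond the dotted 2-fold lines on both axes, and SINVm1_gene_00196 lies at -1.26 on x and near 0 on y.

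Comparing one gene with another needs a length correction. In TPM, which divides reads by effective length and scales each library to a common total, XLOC_003144 was the highest of the 5 in each library, with 194 (P_Bb), 242 (P_BB) and 337 TPM (M_BB). The Harbinger-like genes came next: SINVm1_gene_10777 had 112, 76.1 and 55.1 TPM and SINVm1_gene_00196 had 44.0, 102 and 48.7 TPM. The LTR genes were lowest, with 17.6, 3.66 and 2.02 TPM for XLOC_000229 and 13.2, 5.94 and 4.03 TPM for XLOC_042917. The median TPM of tested genes was 34.5 to 37.5 per library, so the DNA transposon genes lay above that median in each library and the LTR genes below it. Ranked by TPM among 8393 tested genes, XLOC_000229 was 6380th in P_Bb, 8286th in P_BB and 8383rd in M_BB, while XLOC_003144 was 624th, 417th and 274th. The large ratios of the Gypsy gene thus concern an RNA of low molar abundance, and its 73 reads in P_Bb are spread over the longest transcript.

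**Figure D4:**
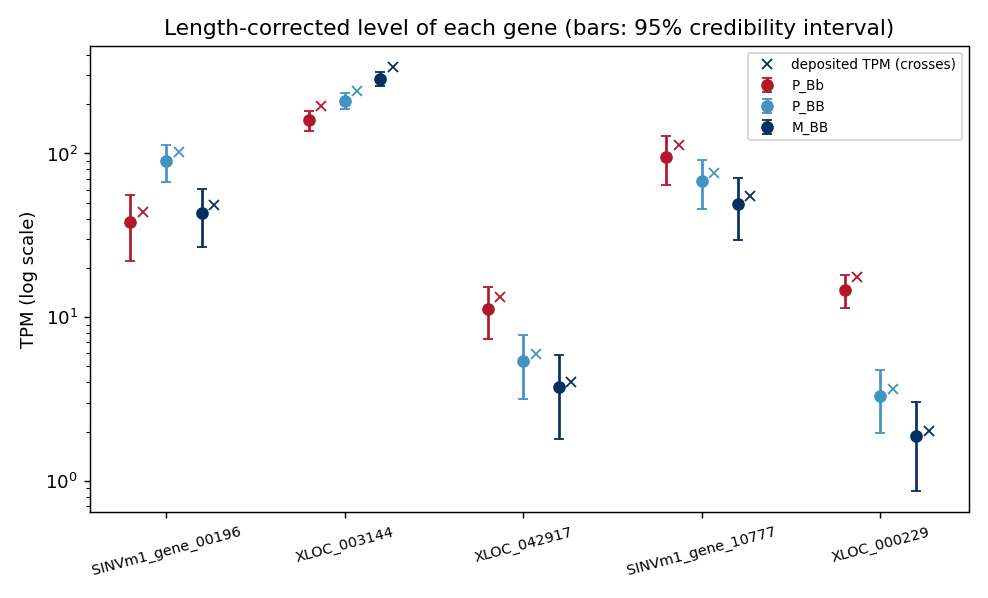
Level of each gene in TPM (log axis) in the P_Bb, P_BB and M_BB libraries. Circles are posterior mean TPM with 95% credibility intervals and crosses the TPM deposited without an interval. The LTR genes XLOC_042917 and XLOC_000229 lie under 20 TPM in each library, and XLOC_003144 lies above the other genes in each.

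The 95% credibility intervals deposited with these levels belong to the posterior mean TPM. Over tested genes this mean had a median of 0.842 to 0.883 of the TPM value, depending on the library, and the TPM exceeded the upper bound for 19.8% to 27.2% of genes. Among the 5 genes it did so for 1 gene in each library, XLOC_003144, whose intervals were 137 to 183 in P_Bb, 187 to 234 in P_BB and 258 to 316 in M_BB. These intervals did not overlap. For XLOC_000229 they were 11.4 to 18.0 in P_Bb, 1.97 to 4.72 in P_BB and 0.866 to 3.04 in M_BB, so that P_Bb was apart and the SB/SB libraries overlapped, as with the counting error.

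Ratios of one gene to another within a library are free of the scaling between libraries. The Gypsy gene had 2.43 reads for each read of the Copia gene in the P_Bb library, 1.12 in P_BB and 0.909 in M_BB. The excess in P_Bb was thus larger for Gypsy than for Copia by a log2 ratio of 1.12 (0.04 to 2.21) against P_BB and 1.42 (0.04 to 2.80) against M_BB, both with lower bounds close to 0. SINVm1_gene_10777 had 1.87 reads for each read of the other Harbinger-like gene, SINVm1_gene_00196, in the P_Bb library, 0.55 in P_BB and 0.832 in M_BB. This ratio was higher in P_Bb than in P_BB by 1.77 (0.73 to 2.80), whereas against M_BB the difference of 1.17 had an interval of -0.02 to 2.36. Genes with the same annotation therefore did not move together between the polygyne libraries. As both genes were listed with opposite directions, this is again a description of how they were chosen.

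The summed normalized counts of the 5 genes were 411, 413 and 433 in P_Bb, P_BB and M_BB. XLOC_003144 took 55.2%, 71.8% and 85.9% of this sum, and the other 4 genes together had 184, 116 and 60.9. The Tc1 gene and the sum of the other 4 thus ran in opposite orders over the libraries, and the sum of all 5 varied less than either. The study listed the Tc1 gene as lower in SB/Sb workers, and XLOC_042917, SINVm1_gene_10777 and XLOC_000229 as higher. These orders are therefore again a description of how the genes were chosen. XLOC_000229 alone had 86.8 of the 184 in P_Bb.

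Repeated sequences raise the question of how many reads could also have come from other transcripts. RSEM divides such reads by likelihood and gives a posterior standard deviation (SD) for each count, which is 0 where the assignment of every read is certain. For SINVm1_gene_00196 and XLOC_000229 the SD was 0 in each library, as for 37.0% of tested genes. For XLOC_042917 it was at most 0.39 reads and for SINVm1_gene_10777 at most 0.55 reads. XLOC_003144 had the largest values, 2.94, 3.42 and 2.93 reads in P_Bb, P_BB and M_BB, which are 1.54%, 1.03% and 0.739% of its posterior mean counts. Posterior means and expected counts of the 5 genes differed by at most 0.12 reads.

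The counting error was the larger part throughout. It ran from 5.02% to 31.6% of the count over the 15 values of the 5 genes and 3 libraries. In the 8 values with a posterior SD above 0, the counting error was 4.71 to 32.2 times the assignment error. With both errors combined, the interval excluded equality for 10 of 15 ratios, the same number as with counting error alone. A posterior SD of 0 says only that the reads fitted a single transcript of the set they were mapped to. Copies of an element in the genome that are outside that set cannot be told apart from the listed gene.

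**Figure D5:**
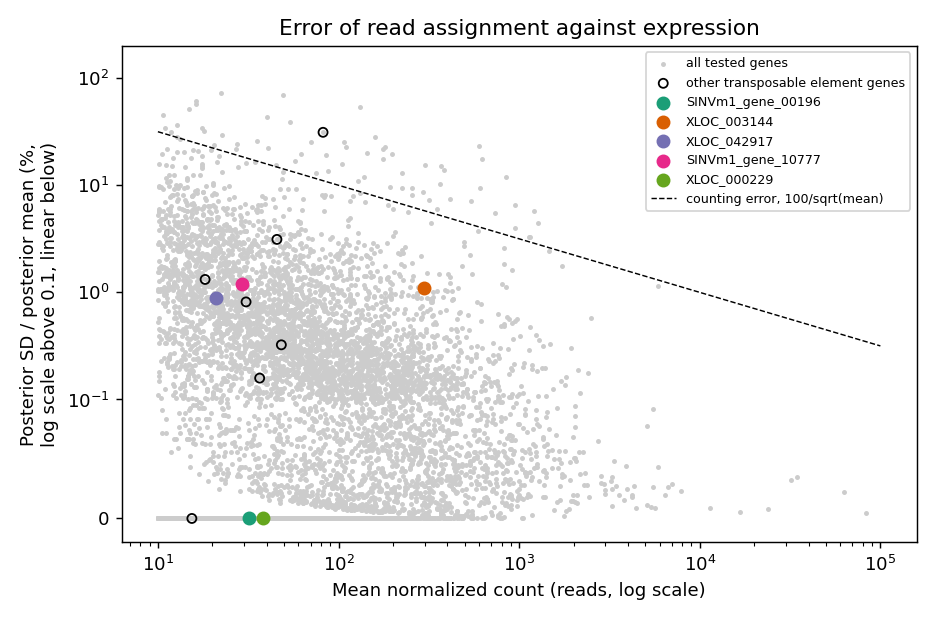
Posterior SD as a percentage of the posterior mean count, averaged over the 3 libraries (log scale above 0.1, linear below), against mean normalized count (log axis) for tested genes (grey), the 5 transposable element genes (coloured) and 7 others (open circles). The dashed line is the Poisson counting error. The 5 genes lie below the line, 2 of them at 0, and the open circle above it is SINVm1_gene_10899, at 31.2%.

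The remaining 11 transposable element genes of the study's list give the wider class: 5 of them are listed by genotype and 6 by social form. Of these, 7 passed the minimum count. Mean normalized counts of the 11 ran from 0.793 for SINVm1_gene_09325, with 2 reads in P_Bb and 0 in each SB/SB library, to 82.1 for SINVm1_gene_10899. Among the 7, 2 were at least 2-fold higher in P_Bb than in both SB/SB libraries, beside 0.453% of tested genes. These were SINVm1_gene_00166 and XLOC_001846, both counted by the study as higher in SB/Sb workers. For SINVm1_gene_00166 the study first found all 3 classes to differ. It counted this gene by genotype after a further test and left a part of social form open. At least 2-fold lower were 0 of the 7, beside 0.667% of tested genes. For XLOC_001846, annotated as an L2 element, P_Bb was 3.21-fold above P_BB (log2 interval 0.67 to 2.79) and 3.62-fold above M_BB (0.80 to 3.08). The SB/SB libraries did not differ there beyond counting error (-1.57 to 1.14). P_Bb was the highest library for 5 of the 5 other genes listed by genotype and for 4 of the 6 listed by social form, beside 35.2% of tested genes. With 3 of the 5 genes described above, this makes 12 of 16. Only 12 of the 16 are tested genes, and they are not the same 12. SINVm1_gene_09325, SINVm1_gene_00935 and SINVm1_gene_09125 did not pass the minimum and were highest in P_Bb on 2, 5.25 and 5 expected counts. The study chose the list on related samples, so these counts are not independent evidence of a direction.

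The most abundant of the 11, SINVm1_gene_10899, is annotated as Mariner, of the same family as the Tc1 gene but with far more shared reads. The study lists it by social form, among genes higher in monogyne workers. P_Bb had a normalized count of 130, P_BB of 72.8 and M_BB of 43.4, so that the monogyne library was the lowest, opposite in order to XLOC_003144. Its posterior SD was 18.0%, 28.2% and 47.5% of the posterior mean, and 0.167% of tested genes had a larger mean share. By counting error P_Bb was above P_BB by a log2 ratio of 0.84 (0.41 to 1.27). With the assignment error added, the ratio was 0.98 and the interval ran from -0.05 to 2.02. All 3 of its ratios excluded equality by counting error, and 1, that of P_Bb to M_BB, did so with both errors.

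The Pol genes encode, by their annotation, the polyprotein of a retrotransposon that holds the reverse transcriptase. Normalized counts of XLOC_001664 in the order P_Bb, P_BB, M_BB were 70.2, 35.0 and 39.6, with P_Bb 2.01-fold above P_BB (log2 interval 0.40 to 1.63) and 1.77-fold above M_BB (0.24 to 1.44). For XLOC_001664, P_Bb was highest and the SB/SB libraries did not differ beyond counting error. The same held for XLOC_000229, XLOC_042917 and SINVm1_gene_10777, and for others of the 11, among them SINVm1_gene_10481. Of these, SINVm1_gene_10777 and SINVm1_gene_10481 are Harbinger-like DNA transposon genes, so the traits were also seen outside the retrotransposon genes. All were listed by the study for differences between worker classes, so nothing is read from this about a class of element. XLOC_002577, another Pol gene, had 55.3, 43.2 and 38.3, and none of its ratios exceeded the counting error. The remaining Pol gene, XLOC_001842, ran the other way, with 25.1, 29.7 and 37.5, and none of its ratios exceeded the counting error either. The study lists XLOC_001842 by social form, as higher in monogyne workers. Of the 3 Pol genes among the 16, 2 were highest in P_Bb, beside 35.2% of tested genes. The Harbinger-like SINVm1_gene_10481 had 47.6, 34.1 and 28.1, the same order as SINVm1_gene_10777. Its ratio of P_Bb to P_BB was 0.48 (-0.20 to 1.16), beside 0.49 for SINVm1_gene_10777, and its ratio of P_Bb to M_BB was 0.76 (0.04 to 1.49). Of the 5 Harbinger-like genes among the 16, 4 were highest in P_Bb, beside 35.2% of tested genes, and SINVm1_gene_00196 was the exception. Only 3 of the 5 passed the minimum count. SINVm1_gene_00935 and SINVm1_gene_09125 did not, and none of their ratios excluded equality. SINVm1_gene_09125 had 5 reads in P_Bb and also 5 in M_BB, so its place rests on the scaling.

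The genes most like each of the 5 were sought by the distance between the 3 centred log2 values, over 3 libraries only, so that many genes lie close. For XLOC_000229 few did: the nearest were SINVm1_gene_05106, at a distance of 0.35 and with normalized counts of 47.6, 13.4 and 4.69, and SINVm1_gene_00166, at 0.39 and with 38.1, 5.38 and 2.81. The latter is itself one of the 11 other transposable element genes and is annotated as a transposase domain-containing protein. Its M_BB value rests on 3 reads. For XLOC_042917 the nearest was SINVm1_gene_05326 at 0.038, with 65.4, 32.3 and 19.7, followed by SINVm1_gene_08628 at 0.055. The study also lists SINVm1_gene_05326 by genotype, as higher in SB/Sb workers, so it was picked for the same kind of difference as XLOC_042917.

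For SINVm1_gene_10777 the nearest genes were XLOC_003665 at 0.014 and SINVm1_gene_08896 at 0.016. For SINVm1_gene_00196 they were XLOC_026822 at 0.034, with normalized counts of 9.52, 24.2 and 10.3, and SINVm1_gene_04236 at 0.11. XLOC_003144 had SINVm1_gene_02710 at 0.0057 and SINVm1_gene_06615 at 0.0077, both with 9.52, 12.5 and 15.9 normalized counts and so with wide counting error. Among the 5 themselves the closest pair was XLOC_042917 and SINVm1_gene_10777, at 0.51, and the farthest was XLOC_003144 and XLOC_000229, at 2.78.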

How the data were processed

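Antennal RNA of pooled workers was sequenced in 1 library per class. Per the methods, reads were mapped with Bowtie onto a transcript set (official gene models, odorant receptors and antennal transcripts assembled by the authors) and quantified with RSEM. The authors deposited expected counts, which need not be whole, posterior mean counts with their SD, and TPM with 95% credibility bounds. A forward probability of 0.5 was set, so both strands were counted and overlapping antisense genes are uncertain. The deposited transcript models number loci differently and were not used, nor was the deposited table of EBSeq probabilities for patterns of expression, so no coordinates or sequences are given. Gene names are those of the study's annotation.

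Expected counts were divided by upper-quartile size factors (0.841 for P_Bb, 1.12 for P_BB and 1.07 for M_BB). Log2 ratios carry exact conditional (Clopper-Pearson) 95% intervals on counts rounded to whole numbers, and levels carry exact Poisson intervals. Ratios of ratios carry normal-approximation intervals. Reads had no molecular identifiers, so copies made by amplification could not be told from separate molecules, and the intervals may be too narrow. The intervals cover counting error only, and with 1 library per class no p-value was computed. All genes were compared at a mean normalized count of at least 10 on log2(value + 0.5), which understates changes of low genes. Ranks of ratios among tested genes use that scale, whereas ratios printed for single genes carry no pseudocount unless stated. The combined interval adds the posterior SD. The 5 genes, the list of 16 and the rule for named genes (the 5 in full, the 4 most abundant others, and the 2 genes nearest to each of the 5) were chosen with earlier results of these data known. SINVm1_gene_09325, SINVm1_gene_00935, SINVm1_gene_09125, XLOC_001846, XLOC_001842 and XLOC_032988 were named after their values were seen. Alternatives were other size factors (median of ratios, TMM from edgeR 4.0.16 and total counts), TPM, posterior means, pseudocounts, minimums and folds. Scripts ran in Python 3.11.15 with scipy 1.17.1 and R 4.3.3 and were tested on simulated data.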

Additional observations from a re-analysis of the deposited data

How the results depend on the processing

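Of 120 values, from 15 ratios of the 5 genes under 8 alternatives, 119 moved by less than the counting error and 0 changed sign. The exception was the log2 ratio of M_BB to P_BB for XLOC_003144, which was 0.57 with total counts in place of 0.33. Of the 8 alternatives, 2 used posterior mean counts and gave identical values, so the 120 are not all separate checks. Those means differed from expected counts by at most 0.12 reads, so these values could hardly move. For XLOC_000229 the log2 ratio of P_Bb ran from 1.95 to 2.27 against P_BB and from 2.68 to 3.21 against M_BB over the alternatives. The number of the 5 genes at least 2-fold from both SB/SB libraries fell from 2 to 1 at a 4-fold threshold. Of the 8 ratios past 2-fold without a pseudocount, 4 came under 2-fold in an alternative. XLOC_042917 for P_Bb against P_BB was 0.90 with a pseudocount of 5, and SINVm1_gene_10777 for P_Bb against M_BB was 0.93 with that pseudocount and 0.90 with total counts. SINVm1_gene_00196 for M_BB against P_BB was -0.96 with total counts. XLOC_000229 for M_BB against P_BB, at -1.01, ran from -0.99 to -0.73 in 6 alternatives. The background counts of all genes depended on the minimum, the pseudocount and the threshold, as their construction implies. For P_Bb against P_BB, P_Bb against M_BB, M_BB against P_BB, and P_Bb against both SB/SB libraries, the main counts were 241, 445, 332 and 94. They were 1932, 2112, 1888 and 963 at a minimum mean count of 1, and 5, 28, 23 and 2 where that minimum was 100. A pseudocount of 5 gave 83, 214, 138 and 36. The counts were at 1.5-fold 1054, 1648, 1453 and 475, and at 4-fold 12, 29, 17 and 9. No paired analysis was possible because each class had 1 library.

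Depth limits the LTR and Harbinger-like genes most: with 10 to 73 reads per library, counting error was 11.7% to 31.6% of the count. Spread between colonies, animals or libraries was not measured. The RNA was pooled, the sources differ on whether 3 or 4 colony replicates entered each pool, and the amplification was not replicated.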
